A study of Mus musculus with 6 samples.

Results

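The regions described here are CTCF sites that were called in wild-type G1E-ER4 erythroblasts and in exactly 1 of 2 BRD2-null clones of that line. They were defined by peak calls alone: peaks of the 3 libraries that overlapped by at least 1 bp were merged into connected regions, and a region was taken when it held a wild-type peak and a peak of either clone C8 or clone D, but not of both. Of 48367 regions, 3500 (7.24%) met this rule. Clone D lacked a peak at 2196 of them, called D-missing regions below, and clone C8 lacked a peak at 1304, called C8-missing regions. Both clones lack BRD2, so these regions measure how far the CTCF peak calls of 2 BRD2-null lines differ from each other at sites seen in the parental line.

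G1E-ER4 is a mouse erythroblast line without endogenous GATA1 that expresses GATA1 fused to the estrogen receptor's ligand-binding part. All 3 libraries came from such cells after 24 hours with 100 nM estradiol, which activates GATA1 and starts erythroid maturation. Wild type here means that BRD2 was intact. Clones C8 and D are separate sub-lines, made with CRISPR/Cas9, in which BRD2 was not detectable, and each is a single clone with 1 CTCF library. Peak positions cannot show whether the cells carried erythroid markers.

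Through its zinc fingers CTCF recognises a long DNA motif; with cohesin it marks insulators and the borders of chromatin loops and domains. BRD2 belongs to the BET family, whose bromodomains bind acetylated histones, and it is known to be recruited to many CTCF sites. Strong CTCF sites are largely shared between cell types, whereas weak sites are more variable.

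The wild-type list held 40271 peaks, the list of clone D 29769 and that of clone C8 32308. Each peak has 3 deposited values, read here from the file layout and their range as fold enrichment, −log10 p and false discovery rate, since no header or label names them. These values come from separate peak calls and are used to rank or describe peaks within a list. The same calls chose the regions, so differences in strength or width between kinds of region are a description. Sequencing depth is unknown, so a missing peak is a peak that was not called and not a site shown to be unbound. With 1 library per clone no p-value is given, and the intervals below are exact 95% intervals that cover counting error only.

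Clone D lacked a peak more often than clone C8 in the lists as deposited. Of the 26129 regions in wild type and clone C8, 8.40% had no clone D peak (8.07 to 8.75). Of the 25237 regions in wild type and clone D, 5.17% had no clone C8 peak (4.90 to 5.45). D-missing regions made up 62.7% of the 3500 (61.1 to 64.3). Clone D also had the shortest list. With every list shortened to its 29769 strongest peaks by enrichment, 1375 regions were D-missing and 1399 C8-missing, or 5.77% and 5.86%. With the same length by −log10 p the order stayed, at 1328 and 1178 regions, or 5.56% and 4.97%. Regions missing from 1 clone were 12.8% of the 27433 wild-type regions found in at least 1 clone (12.4 to 13.2).

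Regions missing from 1 clone came mostly from the weaker and middle part of the wild-type list. The wild-type regions were divided by enrichment into 10 strength classes of about equal size, from 1 (weakest) to 10 (strongest). Both kinds were most numerous in classes 4 and 5, at wild-type enrichments of 15.86 to 22.77, with 450 and 485 D-missing and 313 and 274 C8-missing regions. The border between these classes falls within the tied enrichment 17.84, so no order is read between them. In class 10 there were 3 D-missing regions and 1 C8-missing region. The share without a peak, taken over the regions that the other clone held, fell from class to class. It was 39.9% for clone D in class 1 (34.9 to 45.1), 17.7% in class 5, 3.50% in class 7 and 0.0750% in class 10 (0.0155 to 0.219). For clone C8 it was 27.5% in class 1 (22.6 to 32.8), 10.8% in class 5, 1.60% in class 7 and 0.0250% in class 10 (0.000633 to 0.139). The clones followed the same course, with clone D above clone C8 in each of the 10 classes; in classes 9 and 10 the intervals overlapped.

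**Figure D1:**
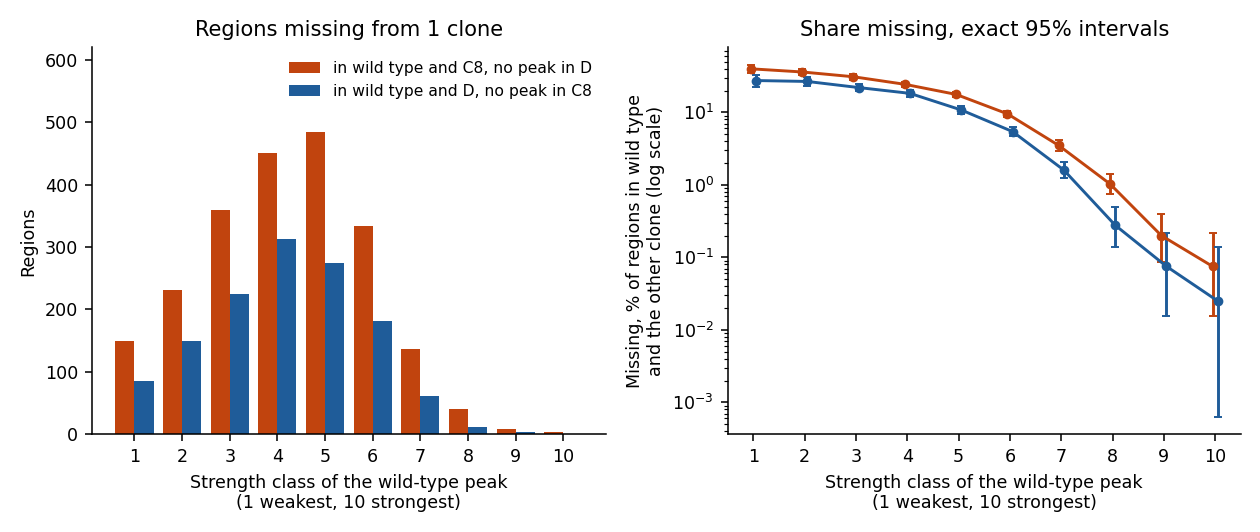
Left, number of regions missing from clone D (red) or clone C8 (blue) in each strength class of the wild-type peak. Right, the same as a percentage of the regions held by wild type and the other clone, on a log scale with exact 95% intervals; the share falls from 39.9% and 27.5% in class 1 to 0.0750% and 0.0250% in class 10.

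Disagreement between the clones fell steeply when both holding calls had to be firm and any peak of the third list still counted. Part of this fall follows from that rule. With a −log10 p of at least 10 required in every list, 6.62% lacked a clone D peak and 5.28% a clone C8 peak. As deposited these shares were 8.40% and 5.17%, so that of clone C8 did not fall. When both holding lists had to reach a −log10 p of 10, 267 of 19055 regions lacked a clone D peak (1.40%) and 137 of 18787 a clone C8 peak (0.729%). At 15 the counts were 34 of 14947 (0.227%) and 16 of 14869 (0.108%). At 20 they were 5 of 11808 (0.0423%, 0.0138 to 0.0988) and 4 of 11831 (0.0338%, 0.00921 to 0.0865), and the 2 intervals overlapped widely. At 30, 1 region of each kind was left.

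The same count can be made for the wild-type library, which differs from the clones in genotype. Of the 26100 regions called in both clones, 8.30% had no wild-type peak (7.97 to 8.64), beside 8.40% for clone D. These shares come from lists of unlike length, 40271 peaks in wild type and 29769 in clone D. The wild-type share was not taken at equal list lengths. At a −log10 p of 10 or more in both holding lists the wild-type share was 1.88% (1.69 to 2.08), against 1.40% for clone D (1.24 to 1.58) and 0.729% for clone C8 (0.613 to 0.861). At 20 it was 0.158% (0.0965 to 0.244), with an interval that met that of clone D at its lower end and lay above that of clone C8. With 1 wild-type library, genotype and library cannot be told apart here. At 10, the intervals of clones D and C8, which both lack BRD2, did not overlap either.

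**Figure D2:**
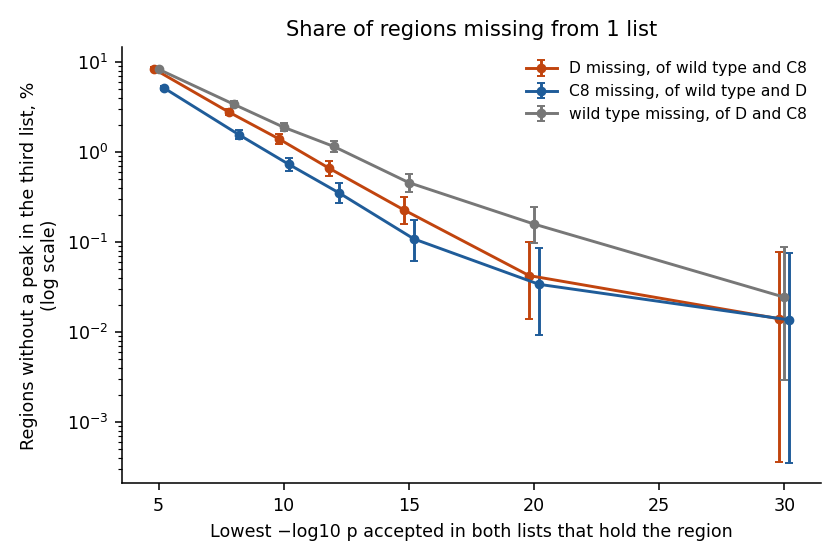
Share of regions held by 2 lists that had no peak in the remaining list (log scale), against the lowest −log10 p accepted in both holding lists; points are shifted slightly sideways and bars are exact 95% intervals. All 3 curves fall, from 8.40% (clone D missing), 5.17% (clone C8 missing) and 8.30% (wild type missing) at 5 to 0.0140%, 0.0136% and 0.0243% at 30. The cutoff was not applied to the remaining list, where any peak counted, so part of the fall follows from the rule.

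Within the lists that held them, both kinds of region were weak. The median wild-type enrichment was 17.8 for D-missing and for C8-missing regions, against 37.0 for regions of all 3 lists and 13.3 for regions of wild type only. The equal medians reflect ties: 1682 wild-type peaks, among them those of 192 D-missing and 149 C8-missing regions, share the enrichment 17.84. By −log10 p, D-missing regions stood slightly higher in wild type, with a median of 8.51 (8.36 to 8.71) against 7.98 for C8-missing regions (7.88 to 8.14). In the clone that held the peak, D-missing regions had a median percentile of 20.2 in the clone C8 list (19.1 to 21.0), and C8-missing regions a median percentile of 17.1 in the clone D list (16 to 18.6). Regions of all 3 lists had median percentiles of 62.3 and 59.4 in the same lists.

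Few of the regions were strong in both lists at once. In the upper 50% of the wild-type list lay 523 of the 2196 D-missing and 259 of the 1304 C8-missing regions. In the upper 50% of the clone that held them lay 98 and 39, and in the upper 50% of both lists 48 and 13. By comparison, 43 of the 2167 regions absent from wild type only stood in the upper 50% of both clone lists. The same count was not made for regions of all 3 lists. Their lower quartile lay at percentile 53.2 in wild type, 42.1 in clone C8 and 37.8 in clone D. Both holding lists gave a −log10 p below 10 at 1172 D-missing regions (53.4%) and at 721 C8-missing regions (55.3%). Among the regions of all 3 lists, 3.86% were below 10 in every list. Those regions had to be called in every list, so part of this contrast follows from the rule. A false discovery rate of at most 0.05 was listed in wild type for 27.0% of D-missing and 22.5% of C8-missing regions, and for 82.1% of the regions of all 3 lists. In the clone that held the peak, 62.9% of D-missing and 83.4% of C8-missing regions reached it, against 96.3% and 98.4% of the regions of all 3 lists in clones C8 and D.

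**Figure D3:**
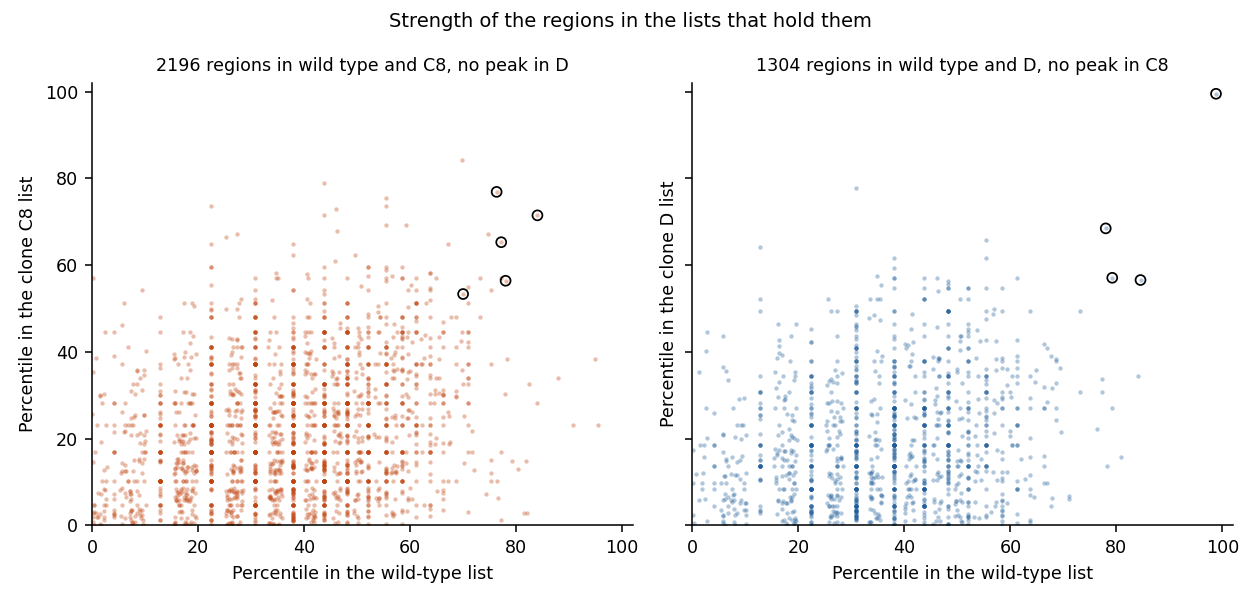
Each point is a region missing from clone D (left) or clone C8 (right), placed by its percentile by enrichment in the wild-type list and in the list of the clone that held it; stripes are tied enrichments. Open circles mark the 9 regions that reached a −log10 p of 20 in both lists; 1 of them, on the right, stands at 98.8 and 99.5.

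The strongest region of all lay on chromosome 1 and was missing from clone C8. At chr1:152767233-152767985 (mm9), wild type had a peak with an enrichment of 97.14, rank 469 of 40271, and a −log10 p of 68.5. Clone D had a peak there with an enrichment of 65.86, rank 136 of 29769, and a −log10 p of 136. Clone C8 had no peak within 88.4 kb. Its nearest one belonged to a region of all 3 lists at chr1:152856359-152857113, where the enrichments were 49.47 in wild type, 43.38 in clone D and 37.97 in clone C8, the last at a percentile of 79.8 in the clone C8 list. It was the only one of the 3500 regions in the upper 10% of both lists that held it.

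The other 3 C8-missing regions that reached a −log10 p of 20 in both lists stood at percentiles of 78.0 to 84.5 in the wild-type list and of 56.6 to 68.5 in the clone D list. At chr11:100956859-100957498 the enrichment was 51.79 in wild type and 19.68 in clone D, with −log10 p values of 28.9 and 22.5. A region on the same chromosome, chr11:98250655-98251223, had enrichments of 44.19 and 24.21. On chromosome X, chrX:10364079-10364604 had enrichments of 45.6 and 19.76, and no clone C8 peak lay within 72.7 kb. The nearest regions of all 3 lists beside these chromosome 11 sites were strong in clone C8, at percentiles of 81.4 and 95.1, and of middle rank in clone D, at 50.4 and 44.8.

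Clone D lacked a peak at 5 regions of this strength. The highest wild-type enrichment among them, 51.54, was at chr17:34051755-34052095, where clone C8 had 32.3 and the nearest clone D peak was 3.65 kb away. Next came chr12:114341948-114342576 with 44.39 in wild type and 24.5 in clone C8; a clone D peak lay 0.684 kb away. The regions chr12:36557893-36558369 and chr10:81027470-81027870 had wild-type enrichments of 43.61 and 42.81 and clone C8 enrichments of 28.53 and 36.08. The fifth, chr1:13779089-13779863, had 37.08 and 23.04, and the largest −log10 p of the 5 in each list, 48.2 and 33.8. None of the 5 reached the upper 10% of the wild-type list or of the clone C8 list; their percentiles ran from 70 to 84.0 and from 53.3 to 76.9.

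Other regions were strong in wild type and weak in the clone that still held a peak. The 5 D-missing regions with the highest wild-type enrichment were chr18:11804794-11805433 (75.33), chr13:21858438-21859103 (73.35), chr6:94992126-94992791 (63.41), chr4:88773810-88774339 (57.49) and chr10:47172950-47173484 (51.54, tied with the chromosome 17 region above). In clone C8 their enrichments were 12.92, 16.84, 12.92, 15.63 and 14.21, at percentiles of 23.2 to 38.4 of that list. The first 3 ranked 1766, 1985 and 3693 in wild type. These sites thus had a weak call in 1 BRD2-null clone and none in the other. Among C8-missing regions the same held at chr10:28088377-28088749 (51.54 in wild type, 13.17 in clone D), chr6:120146887-120147361 (47.58 and 9.39) and chr2:71269285-71269889 (45.6 and 11.53).

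Ranked by the lower of their 2 percentiles, 2 more D-missing regions and 1 more C8-missing region entered the leading 5. They were chr6:119392706-119393335 (36.51 in wild type, 41.92 in clone C8, the highest clone C8 enrichment of any D-missing region), chr12:50207346-50207825 (41.54 and 29.71) and chrX:104672312-104672839 (29.74 in wild type, 19.76 in clone D). The chromosome 6 region had a −log10 p of 42.0 in clone C8 and of 18.9 in wild type. A clone D peak lay 0.844 kb from it.

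Most missing peaks had no close substitute in the clone that lacked them. A clone D peak lay within 1 kb of 154 of the 2196 D-missing regions (7.01%, 5.98 to 8.16), and a clone C8 peak within 1 kb of 115 of the 1304 C8-missing regions (8.82%, 7.34 to 10.5). Regions of all 3 lists had another clone D peak that close at 8.86% and another clone C8 peak at 9.02%. The 5 D-missing regions nearest to a clone D peak were 18 to 50 bp away from it, and the 5 C8-missing regions nearest to a clone C8 peak 45 to 93 bp. Just inside the rule, the 5 smallest overlaps that put a region into all 3 lists were 171 to 191 bp for clone D peaks and 18 to 159 bp for clone C8 peaks.

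The wild-type peaks at both kinds of region were narrow. Their median width was 364 bp at D-missing regions (360 to 368) and 358 bp at C8-missing regions (352 to 362), against 450 bp at regions of all 3 lists and 370 bp at wild-type-only regions. Among peaks of like enrichment both kinds also had lower median widths than regions of all 3 lists in classes 2 to 7. In strength class 4 the medians were 350 bp (D-missing, 343 to 364), 337 bp (C8-missing, 326 to 346) and 376 bp (all 3 lists, 368 to 380). In class 5 the medians were 353 bp (D-missing, 343 to 365), 378 bp (C8-missing, 347 to 390) and 391 bp (all 3 lists, 386 to 396), where the intervals of the last 2 overlapped. In class 6 they were 388 bp (374 to 404), 375 bp (353 to 392) and 418 bp (414 to 423). In class 2 the D-missing and C8-missing medians were 359 bp (353 to 366) and 349 bp (339 to 359), against 369 bp (365 to 376). In class 3 they were 358 bp (351 to 365) and 355 bp (348 to 367), against 369 bp (364 to 375). The D-missing interval met that of all 3 lists in class 2, and both intervals did in class 3. Wild-type-only regions had medians of 372 and 370 bp in classes 2 and 3, but 329 and 344 bp in classes 5 and 6. In the clones, the peak was 349 bp wide in clone C8 at D-missing regions, against 443 bp at regions of all 3 lists. The clone D peak was 415 bp wide at C8-missing regions, against 514 bp. All but 5 D-missing and 3 C8-missing regions consisted of exactly 1 peak of each list that held them.

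The spacing of the regions was close to that of the shared CTCF sites. The median gap to the nearest other wild-type peak was 9.57 kb for D-missing regions (8.91 to 10.5) and 10.6 kb for C8-missing regions (9.89 to 11.8). It was 9.34 kb for regions of all 3 lists and 15.3 kb for wild-type-only regions. The ratio of the 2 medians was 0.898, with bounds of 0.755 and 1.06 from their intervals, so the bounds held 1. The middle 50% of the gaps ran from 3.73 to 25.1 kb and from 3.60 to 26.4 kb. The wider gap of wild-type-only regions belonged to weak peaks. In strength class 2 its median was 19.1 kb, against 10.3 kb for regions of all 3 lists. In classes 5 and 6 it was 10.2 and 9.42 kb, against 10.1 and 10.5 kb.

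Along the chromosomes the regions were mostly single. After a D-missing region, the next wild-type region was also D-missing in 7.51% of cases (6.45 to 8.70), against 5.48% over all wild-type regions and 6.75% after a C8-missing region (5.45 to 8.25). After a C8-missing region the next was C8-missing in 3.45% (2.53 to 4.59), against 3.25% over all. D-missing regions formed 1883 single sites, 134 pairs, 11 runs of 3 and 3 runs of 4. C8-missing regions formed 1214 single sites and 45 pairs, with no longer run. The runs of 4 lay at chr2:121735740-121806835, chrX:27350008-27802059 and chrX:157527905-157576935, and held no clone D peak. In the last of these the wild-type enrichments were 29.74 to 43.61 and those of clone C8 9.04 to 12.92.

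By chromosome, the share of D-missing regions was highest on chromosome X, leaving out chromosome Y with its 2 regions, at 11.6% of 698 regions (9.32 to 14.2), followed by chromosome 14 at 10.8% (8.95 to 12.8). It was lowest on chromosome 3, at 6.58% (5.26 to 8.11). To allow for peak strength, the count on each chromosome was set against the rate among autosomal regions in the same one of 50 bins of wild-type enrichment. Chromosome X then exceeded the expected share by 1.88 percentage points, chromosome 2 by 1.21 (211 regions, 185 expected) and chromosome 14 by 1.13. Chromosome 1 stood at −1.69 (129 regions, 159 expected). Some windows of 2 Mb on chromosomes X and 14 held large excesses. In single windows on chromosome X, clone D lacked 9 of 9, 8 of 12, 5 of 13 and 5 of 20 regions shared by wild type and clone C8. In single windows on chromosome 14 it lacked 13 of 19, 8 of 8, 4 of 4 and 4 of 6. These windows were picked after their counts were seen, so leaving them out lowers the rest of the chromosome by construction. Whether the excess was confined to them was not tested. In a single simulated draw of D-missing regions, an extra loss was planted on chromosome 3 and also entered the expected rates. The other autosomes differed from the expected share by up to 2.15 points. This draw did not measure the spread without a planted loss, and chromosome X was not among those autosomes. In lists of equal length the excess of chromosome X was 1.60 points, that of chromosome 2 0.128, chromosome 14 stood at −0.157 and chromosome 1 at −0.905 (60 regions, 74.0 expected). The value of chromosome X depended on tied enrichments, which these bins split in genome order: with ties kept in 1 bin its excess was 0.778 points (81 regions, 75.6 expected), and 0.265 with equal lengths. Chromosome 14 then stood at 1.44 and 0.169 points, chromosome 2 at 1.23 and 0.264 and chromosome 1 at −1.43 and −0.974.

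The distribution of C8-missing regions over chromosomes was not tested against that of D-missing regions. The share of C8-missing regions was highest on chromosome 12, at 8.15% of 1055 regions (6.57 to 9.97). There 86 regions were counted and 63.5 expected, an excess of 2.13 points. Chromosome 5 followed in excess, with 116 regions against 91.6 expected (1.41 points). Chromosome 8 was lowest, at 3.61% (2.63 to 4.81), with 44 regions against 61.2 expected. In lists of equal length the differences were 1.27, 1.10 and −1.01 points. On chromosome 12 D-missing regions numbered 99, with 98.7 expected, and on chromosome 8 108, with 107 expected. On chromosome X C8-missing regions stood at 0.502 points as deposited and at −1.65 points with equal lengths, and with ties kept together at −0.0864 and −2.80 points. The interval of the observed share did not hold the expected share on chromosome 1 (and Y) for D-missing regions and on chromosomes 5, 8 and 12 for C8-missing regions; on chromosome 2 the expected share of D-missing regions lay at the bound, 8.47%, and with ties kept together just below it, at 8.45%.

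**Figure D4:**
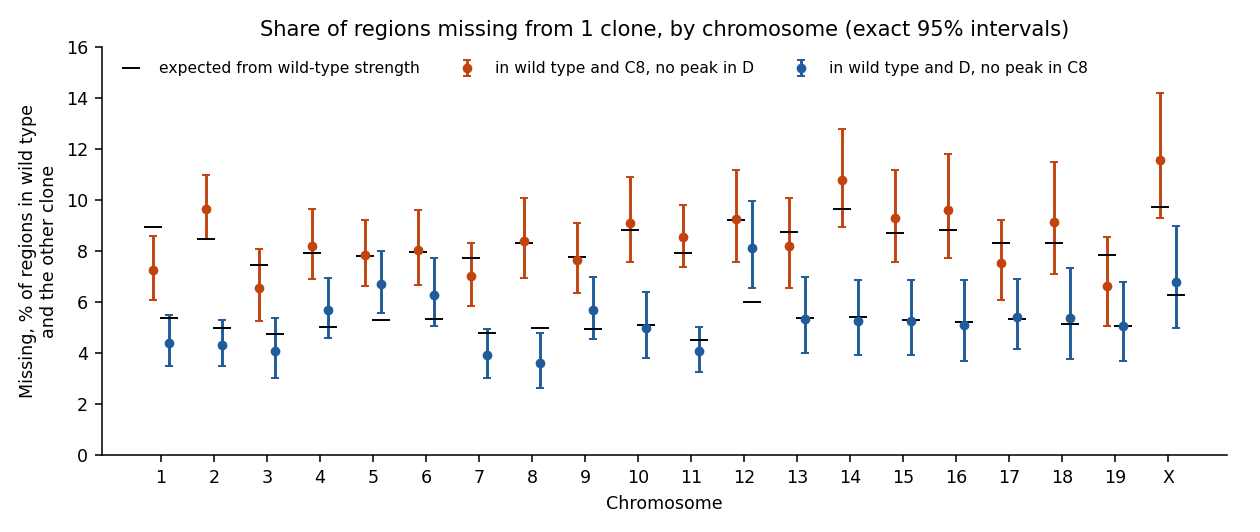
Share of regions missing from clone D (red) or clone C8 (blue) on each chromosome, as a percentage of the regions held by wild type and the other clone, with exact 95% intervals; black dashes give the share expected from wild-type strength. Leaving out chromosome Y, clone D peaks are missing most often on chromosome X (11.6%) and clone C8 peaks on chromosome 12 (8.15%).

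Windows of 2 Mb showed where the regions gathered. Of 1305 windows with a wild-type region, 834 held a D-missing region, 662 a C8-missing region and 518 both. The largest counts of D-missing regions were 13 on chromosome 14 (42000001 to 44000000, 4.33 expected), 13 on chromosome 2 (166000001 to 168000000, 6.41 expected) and 12 on chromosome 9 (88000001 to 90000000, 3.25 expected). The window on chromosome X from 26000001 to 28000000 held 9 with 1.47 expected. The windows were picked as the highest of 1305, so some excess follows from the choice. In lists of equal length these windows held 8 (2.29 expected), 4 (2.39), 7 (1.23) and 8 (0.960), so the chromosome 2 window lost most of its count.

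On chromosome X from 26000001 to 28000000, clone D had no peak at all, while wild type had 17 and clone C8 11. The 9 D-missing regions there lay between 26283787 and 27802059, with wild-type enrichments of 13.88 to 29.74 (median 21.8) and clone C8 enrichments of 11.63 to 25.84 (median 15.5). No region of the window was shared by all 3 lists, so clone D could not be followed there at a called site. The highest clone C8 enrichment was at chrX:27350008-27350527, with 25.84 beside 23.79 in wild type.

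On chromosome 9 from 88000001 to 90000000, clone D lacked 12 of the 27 regions that wild type and clone C8 shared. They lay between 88437510 and 89991486, and the strongest in wild type were chr9:88612971-88613541 (37.67, and 21.96 in clone C8) and chr9:89107129-89107722 (35.68 and 20.67). The remaining 15 regions were held by all 3 lists. All 23933 regions of all 3 lists were ranked by enrichment within clone D and within clone C8, and the percentiles were subtracted (D minus C8). At these 15 regions the median difference was −13.4 points, with a range of −43.4 to 20.9, and 11 stood lower in clone D. Sites that clone D still held in this window thus also ranked lower in clone D than in clone C8. By −log10 p the median difference was −11.9 points.

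The chromosome 14 window held 13 D-missing regions between 42057010 and 43697212, at wild-type enrichments of 9.66 to 29.74. Wild type had 56 peaks there, clone C8 31 and clone D 11, and 34 regions were called in wild type only. The 6 regions of all 3 lists had a median difference of −1.22 points between the clones, and 3 of them stood lower in clone D. By −log10 p the median was −4.85 points. D-missing regions also gathered in the first windows of chromosome 14 with a wild-type region. There clone D lacked 4 of 4, 4 of 6 and 8 of 8 regions that wild type and clone C8 shared.

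The largest count of C8-missing regions, which are fewer in all, was 9, on chromosome 11 from 100000001 to 102000000 (4.33 expected), a window that also held 10 D-missing regions (6.57 expected). Next came 7 each on chromosome 12 (56000001 to 58000000, 1.90 expected), chromosome 15 (78000001 to 80000000, 2.85), chromosome 14 (52000001 to 54000000, 4.34) and chromosome 5 (122000001 to 124000000, 4.90). In the chromosome 12 window no region was D-missing, and the 7 C8-missing regions lay between 56082903 and 57158845. The strongest was chr12:56727557-56728204, with an enrichment of 42.86 in wild type and 10.65 in clone D. The 31 shared regions of that window had a median difference of 11.5 points, and 21 stood higher in clone D than in clone C8. The shared sites of this window thus ranked higher in clone D, and those of the chromosome 9 window lower. With equal lists the count was 6, with 1.8 expected. The side of the missing calls did not always go with that of the shared sites: in the chromosome 11 and 15 windows the shared regions had median differences of −3.68 and −3.86 points, lower in clone D although clone C8 lacked the peaks.

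**Figure D5:**
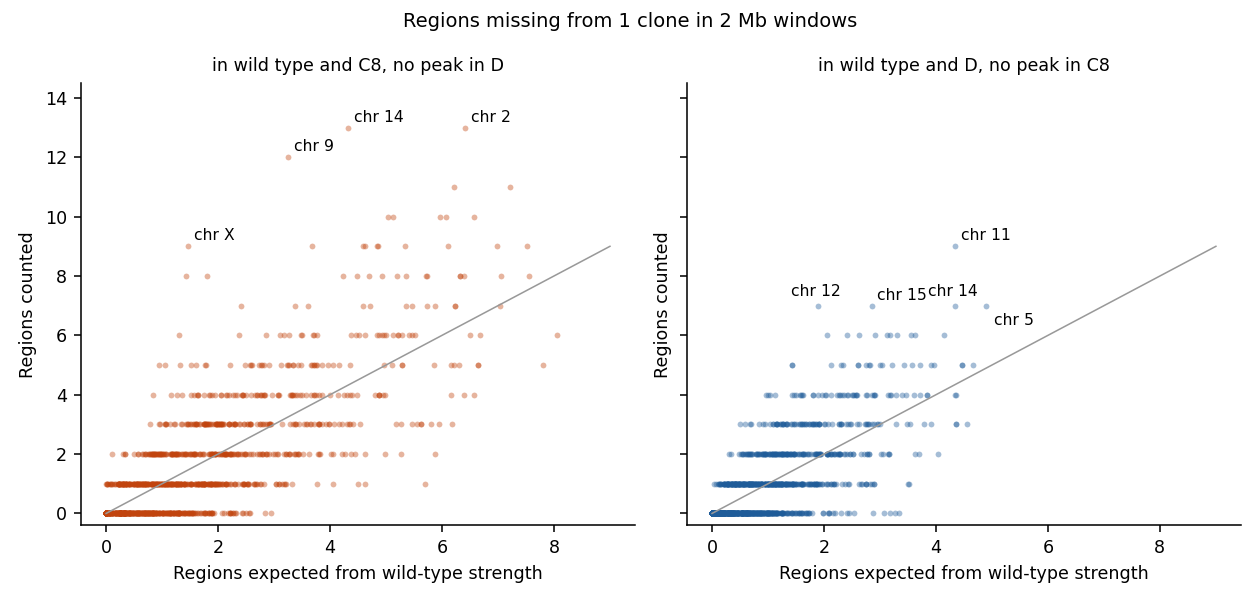
Regions missing from clone D (left) or clone C8 (right) counted in each 2 Mb window, against the count expected from wild-type strength; the line marks equality and the labels give the chromosome of the windows with the largest counts or excess. The chromosome 9 window holds 12 D-missing regions with 3.25 expected, and the chromosome 12 window 7 C8-missing regions with 1.90 expected.

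Over the whole genome the shared sites around the regions differed little between the clones. Shared regions within 100 kb of a D-missing but no C8-missing region (5469 regions) had a median difference of −0.869 points (−1.39 to −0.332), and 52.1% of them stood lower in clone D. Shared regions within 100 kb of a C8-missing but no D-missing region (2905) had a median of 0.861 points (0.169 to 1.68), and 47.6% stood lower in clone D. Shared regions within 100 kb of both kinds (2005) had a median of −1.01 points (−1.98 to −0.295), and 53.0% stood lower in clone D. Those near neither kind (13554) had a median of 0.554 points (0.253 to 0.840). Shared sites near D-missing regions, with or without a C8-missing region nearby, thus ranked slightly lower in clone D than those near neither kind, while the intervals for sites near C8-missing regions and near neither overlapped. Neighbouring sites are not independent of each other. By −log10 p the medians were −0.274 (D-missing only), 0.712 (C8-missing only), −0.587 (both) and 0.280 points (neither), and the interval of the first, −0.702 to 0.0292, held 0. Across the 799 windows with at least 10 shared regions, the excess of D-missing over C8-missing regions was set against the median difference of the shared regions. The Pearson correlation was −0.132 and the Spearman correlation −0.103, given as a description of windows that share the same 3 libraries. In 37 windows the D-missing excess was larger by at least 3, and the median difference was −1.06 points (−2.77 to 0.242). In 37 windows the C8-missing excess was larger by at least 3, with a median of 0.242 points (−1.82 to 1.89). Both intervals held 0, and 18 windows of the latter kind stood lower in clone D.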

How the data were processed

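The authors deposited 1 CTCF ChIP-seq peak list for each of the 3 lines; the 3 matching inputs were left out. The submitters' processing notes name bcl2fastq 1.8.4, Bowtie 1.0.0 and mm9, and no source used here gives the peak caller. The deposited columns 7 to 9 have no header; from the broadPeak layout and the values they were read as the authors' fold enrichment (a ratio), −log10 p (5 or more) and false discovery rate (a q-value as a fraction), and the results rest on that reading.

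Python 3.11.15, pandas 2.3.3, numpy 2.4.6 and SciPy 1.17.1 were used. Where a region held several peaks of a list, the one with the highest enrichment gave its values. Shares and medians carry exact binomial 95% intervals. Region code put 7000 of 7000 simulated regions into their class, and 6 of 6 overlap counts equalled bedtools 2.31.1. An extra loss of 8.45 points planted on chromosome 3 (1231 regions) was recovered as 7.84, with up to 2.15 points on other autosomes.

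The regions, lists and rules were chosen with earlier results of these data known. Named were regions that reached a −log10 p of 20 in both lists, the 5 of each kind with the highest wild-type enrichment or the best lower percentile, windows with the 3 largest counts or excesses, and the longest runs; single regions within windows were picked after their values were seen. Positions are mm9, counted from 1. No mm9 genome or annotation was used, so no gene or sequence is given.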

Additional observations from a re-analysis of the deposited data

How the results depend on the processing

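The 10 alternatives were the upper 75% of each list, extension of peaks by 500 bp, 50% reciprocal overlap, equal list lengths by enrichment or −log10 p, thresholds on −log10 p or the false discovery rate, autosomes only, and regions with 1 peak per list. Of 70 values, 49 stayed within a factor of 1.5 (counts) or within the interval of the deposited value (shares and ratios), and 21 moved. A −log10 p of at least 10 in both holding lists gave 267 D-missing and 137 C8-missing regions, shares of 1.40% and 0.729%, and a ratio of wild-type enrichments of 1.03. The same threshold in every list gave 1261 D-missing regions (6.62%) and a ratio of 1.07. Requiring a false discovery rate up to 0.05 gave 582 and 557 regions, shares of 2.94% and 2.82%, and a ratio of 1.06. Equal lengths gave 1375 D-missing regions and shares of 5.77% and 5.86% by enrichment, and 1328 D-missing regions (5.56%) by −log10 p. The upper 75% gave shares of 12.0% and 6.74% and a ratio of 1.06. Except for equal lengths by enrichment, D-missing regions outnumbered C8-missing regions under each alternative. Ratios of peak width and spacing did not move. Keeping tied enrichments in 1 strength bin was an alternative chosen after seeing the data. It lowered the excess of D-missing regions on chromosome X from 1.88 to 0.778 points. That of C8-missing regions there turned from 0.502 to −0.0864. Every named window still held more regions than expected, but the windows were picked for large counts or excesses in the same data. With ties kept together, the interval of the observed share did not hold the expected share in the named D-missing windows. Among the named C8-missing windows it held the expected share on chromosomes 5, 11, 14 and 15, and not on chromosome 12. By construction, the thresholds and equal lengths remove weak peaks.

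No paired analysis was possible because each group has 1 library and no result comes from a test. Leaving out a clone was not run, since the rule needs both. The depth of the libraries is unknown, so its part in the counts was not tested.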

Other observations

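On chromosome Y, 2 of 22 wild-type regions were also held by clone C8, and clone D had no peak at either. In the C8-missing window of chromosome 15, clone D had a −log10 p of 27.8 at chr15:79399376-79400023, where wild type had 7.92, with enrichments of 14.93 and 15.86 in their own lists.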
